A study of Homo sapiens with 6 samples.

Results

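The glycolysis and hypoxia response genes are a set of 36 genes: the HIF transcription factor subunits HIF1A and EPAS1, 2 of the oxygen sensors that control them, glucose transporters, glycolytic enzymes, the regulators of phosphofructokinase, and transcripts known to rise when oxygen is short. Members were taken by name, as rows of the array whose only annotated gene symbol was one of the 36, with the brightest row over all 6 arrays kept for each gene. This gave 34 of the 36 genes, out of 18417 genes on the array with a symbol of their own. CA9, a carbonic anhydrase gene, had no row named for it in the annotation used, and PGAM1, a glycolytic mutase gene, had only rows shared with PGAM4. The cells were YCC3, an established line from a human gastric cancer, given either CTNNB1 siRNA (3 arrays) or non-targeting control siRNA (3 arrays), both from Dharmacon, and taken for RNA at 48 hours. CTNNB1 encodes beta-catenin, the co-activator of the Wnt pathway, and siRNA directs the cell to degrade the matching mRNA. The labels describe no untransfected arm and no arm at low oxygen, state no oxygen level for the culture, and do not say whether a single siRNA or a pool was used. The comparison asks how these transcripts differ when CTNNB1 is silenced.

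Glycolysis turns glucose into pyruvate in the cytosol, and its committed step is made by phosphofructokinase, whose activity is set by a sugar bisphosphate that the bifunctional PFKFB enzymes make and break down. When oxygen is short, the EGLN prolyl hydroxylases no longer mark HIF alpha subunits for destruction. HIF then binds hypoxia response elements and raises transcripts for glucose uptake, glycolysis, angiogenesis and mitophagy. Tumour cells, those of the stomach included, often run glycolysis at a high rate also with oxygen present.

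The targeted transcript checked the labels: CTNNB1 measured 11.80, 11.81 and 11.90 with control siRNA and 10.94, 11.06 and 11.20 with CTNNB1 siRNA, so that it fell by 0.77 ± 0.10 (SE) on the log2 scale (adjusted p = 0.00267 in limma). A per-gene fit without moderation of the variances, used beside counts of 0, called 0.407% of all genes higher and 0.195% lower and did not call CTNNB1 itself (adjusted p = 0.0660), so a count of 0 from it says little. All values here are log2 RMA signals, in which 1 unit is a doubling of signal, and array medians lay between 5.88 and 5.95. Across all 18417 genes 382 rose (2.07%) and 488 fell (2.65%), 870 in all (4.72%), or 488 and 379 after cyclic loess scaling. The median change of all genes was 0.006. A gene is said to have risen or fallen only where limma's adjusted p was under 0.05, and errors of log2 changes are standard errors. The labels call the samples biological replicates without naming separate cultures, so the p-values take in only how far these 6 samples spread, which may be technical. Gastric epithelial markers were bright, with control means from 6.74 to 13.57 for 14 genes, and 5 of them rose. Leukocyte markers (9 genes, 2.58 to 6.51) and fibroblast and endothelial markers (10 genes, 2.20 to 6.66) were mostly dim. Of these, 0 were called by limma, 0 by a per-gene fit without moderation, and 0 had an unadjusted p under 0.05; their mean signals were 4.49 to 4.68 in controls and 4.60 to 4.83 with CTNNB1 siRNA for leukocyte markers, and 4.55 to 4.62 and 4.62 to 4.71 for the others. In bulk RNA, fewer cells of a kind and less RNA per cell cannot be told apart.

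Silencing of CTNNB1 came with a rise of 5 of the 34 measured members and a fall of none. PFKFB4, a phosphofructokinase regulator, rose 1.61-fold, NDRG1, a stress-responsive growth suppressor gene, 1.58-fold, and ANKRD37, an ankyrin repeat gene and HIF target, 1.54-fold. ADM, which encodes the vasodilator peptide adrenomedullin, rose 1.46-fold and ENO2, the neuronal form of enolase, 1.39-fold. Most of the glycolytic pathway showed no call, as did most genes on the array, of which 4.72% were called. SLC2A1, GPI, ALDOA, TPI1, GAPDH, PGK1, ENO1 and PKM had changes between -0.12 and 0.06. Other genes of the pathway that were not called ranged more widely, from -0.43 for PFKM and -0.40 for PFKFB2 to 0.37 for ALDOC.

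The 5 rises are 14.7% of the measured members, beside 2.07% of all genes that rose. Of the 34 members 27 had a change above 0, which 51.2% of all genes had, and their median change was 0.12 beside 0.006 over all genes. The marker lists also lay above 0: 9 of 9 leukocyte markers (median 0.11), 7 of 10 fibroblast and endothelial markers (median 0.13) and 13 of 14 gastric epithelial markers (median 0.29). The members' median thus lay between those of the leukocyte and the fibroblast and endothelial lists, in which limma called 0 genes. A positive median was not particular to the members. Those 2 lists are dim, though, and without the dimmest 50% of genes 0 and 1 of their genes were left, beside 33 members. In that fit 8 of the 33 members were higher, beside 7% of all genes. The members' median change there was 0.09, beside -0.05 over all genes. Signals did not overlap between groups, with CTNNB1 siRNA higher, for 14 members (41.2%, beside 10.8% of all genes), and with CTNNB1 siRNA lower for 3 (8.82%, beside 15.2%). At an unadjusted p under 0.05, which 20.3% of all genes had, 9 members were higher (beside 8.34% of all genes) and 2, PFKM and PFKFB2, lower (beside 12%). None fell in limma or in a fit without moderation. Because the members were picked with earlier results of these data known, these shares are descriptions and carry no test.

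**Figure D1:**
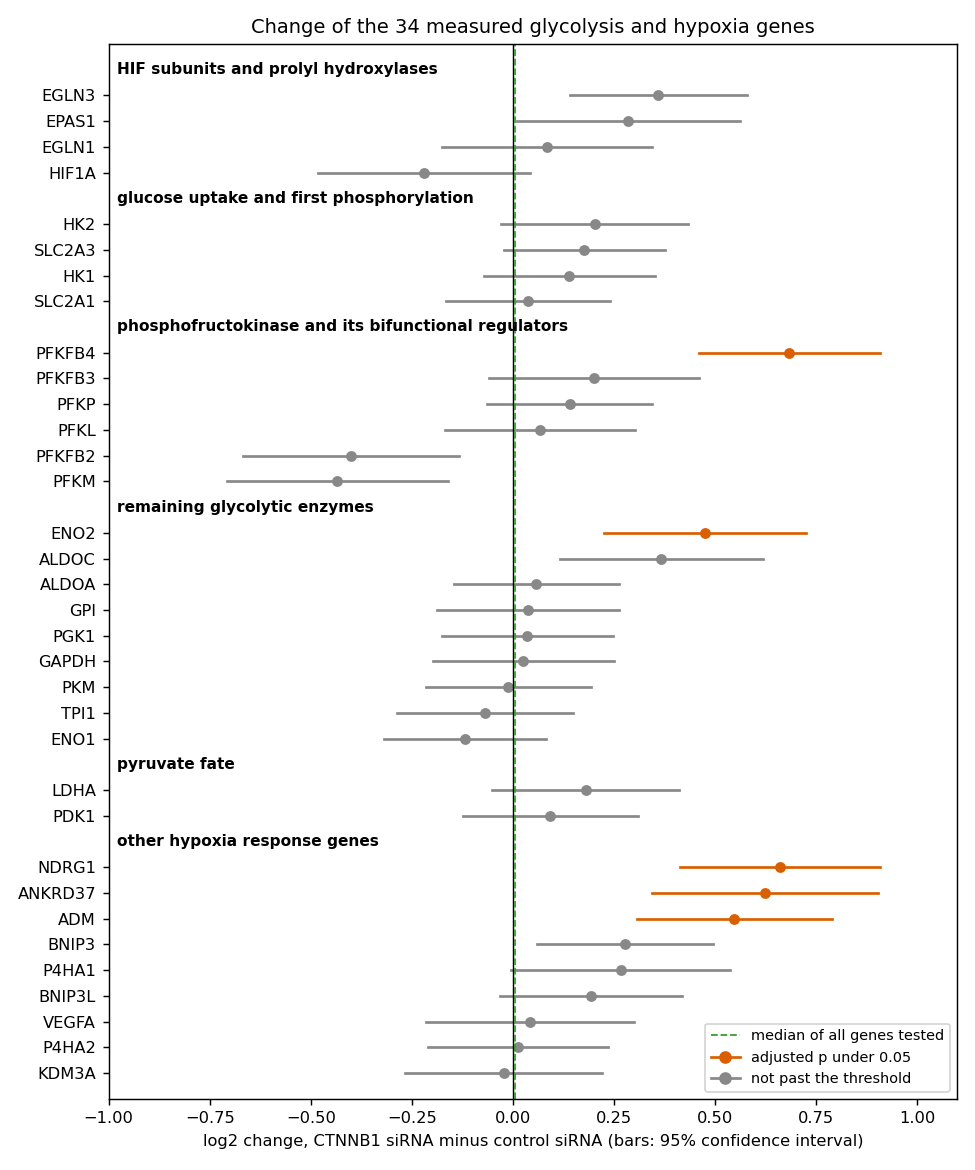
Log2 change (horizontal axis, CTNNB1 siRNA minus control siRNA) of the 34 measured members by role, with 95% confidence intervals from limma; orange marks an adjusted p under 0.05 and the dashed line the median of all genes. The 5 called members lie between 0.48 and 0.68, and the lowest members, PFKM and PFKFB2, at -0.43 and -0.40.

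The promoters of the called members are shown because the hypoxia response element core, ACGTG or GCGTG, is a short motif that can be read from sequence. The letters are the 250 bases before the RefSeq start (GRCh38.p14, given 5′ to 3′ on the gene's strand), with each core match on either strand in capitals.
PFKFB4, chr3:48556804-48557053, minus strand: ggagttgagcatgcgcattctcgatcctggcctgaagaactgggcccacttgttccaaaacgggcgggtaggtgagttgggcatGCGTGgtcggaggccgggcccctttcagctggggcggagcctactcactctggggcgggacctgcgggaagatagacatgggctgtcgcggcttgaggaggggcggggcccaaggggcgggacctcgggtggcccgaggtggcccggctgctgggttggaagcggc
ANKRD37, chr4:185396591-185396840, plus strand: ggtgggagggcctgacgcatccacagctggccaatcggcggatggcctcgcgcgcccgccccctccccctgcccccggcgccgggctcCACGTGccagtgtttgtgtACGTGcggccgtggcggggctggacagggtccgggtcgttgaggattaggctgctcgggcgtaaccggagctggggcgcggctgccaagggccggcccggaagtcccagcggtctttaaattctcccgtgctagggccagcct
ADM, chr11:10304823-10305072, plus strand: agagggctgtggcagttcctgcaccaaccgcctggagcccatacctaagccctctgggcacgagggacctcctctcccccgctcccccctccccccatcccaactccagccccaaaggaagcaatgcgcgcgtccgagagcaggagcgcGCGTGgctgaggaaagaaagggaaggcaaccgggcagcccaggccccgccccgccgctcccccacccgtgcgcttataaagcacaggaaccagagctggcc
ENO2, chr12:6914330-6914579, plus strand: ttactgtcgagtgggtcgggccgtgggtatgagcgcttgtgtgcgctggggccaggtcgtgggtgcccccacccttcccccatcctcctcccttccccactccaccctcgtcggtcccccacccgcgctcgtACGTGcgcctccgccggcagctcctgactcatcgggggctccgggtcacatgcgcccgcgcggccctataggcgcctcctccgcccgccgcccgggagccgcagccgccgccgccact
PFKFB4 and ADM each held 1 GCGTG, ENO2 held 1 ACGTG, and ANKRD37 held ACGTG at 3 places, of which 2 are both strands of a single E-box, CACGTG, the motif bound by MYC and related factors. SLC2A3, PFKFB2, VEGFA, BNIP3L and NDRG1 had no entry in the promoter table.

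Across the set, 21 of 31 members with an entry (67.7%) held ACGTG or GCGTG in this window on either strand, beside 43.1% of 27305 genes in the table, with the first listed start taken for each gene. ACGTG alone was found in 13 members (41.9%, beside 18.7%) and CACGTG, which contains it, in 5 (16.1%, beside 6.49%). Member promoters were also richer in G and C, with a median of 70.0% beside 58.0%, and both core motifs contain a CG step. A core match was present in 4 of 4 called members with an entry and in 16 of 25 measured members that were not called. Among the latter LDHA held 5 matches. With only 4 called members the comparison cannot show whether a match goes with a call. The TCF/LEF motif CTTTGAT was searched because beta-catenin acts through TCF/LEF factors. It was in none of the 31, beside 2.28% of all genes. The interferon-stimulated response element motif was also in none, beside 3.07%. Both motifs are rare over all genes, so their absence from 31 promoters is near those shares and says little. A match is a description of letters and not a bound site, and HIF sites can lie outside this window.

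A single array stood apart in the set. Control replicate 1 had the lowest signal of the 3 controls in 27 of 34 members (79.4%), as against 34.1% of all genes, and control replicate 3 the highest in 21 (61.8%, against 40.8%). The median deviation of the members from their 6-array means was -0.12 in control replicate 1, -0.02 and 0.008 in the other controls, and 0.07, 0.09 and 0.05 in CTNNB1 siRNA replicates 1, 2 and 3. Over all genes the same deviation lay between -0.01 and 0.01. Every CTNNB1 siRNA array thus had a higher median than any control array. Without control replicate 1 the median change of the members was 0.07, 23 of 34 were above 0, and 1 member, PFKFB4, was called, while 1.05% of all genes rose. The mean signal of the 14 gastric epithelial markers was also lowest in control replicate 1, at 10.22, with 10.35 and 10.41 in the other controls and 10.58 to 10.66 with CTNNB1 siRNA. Its part in the members' values was not tested.

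**Figure D2:**
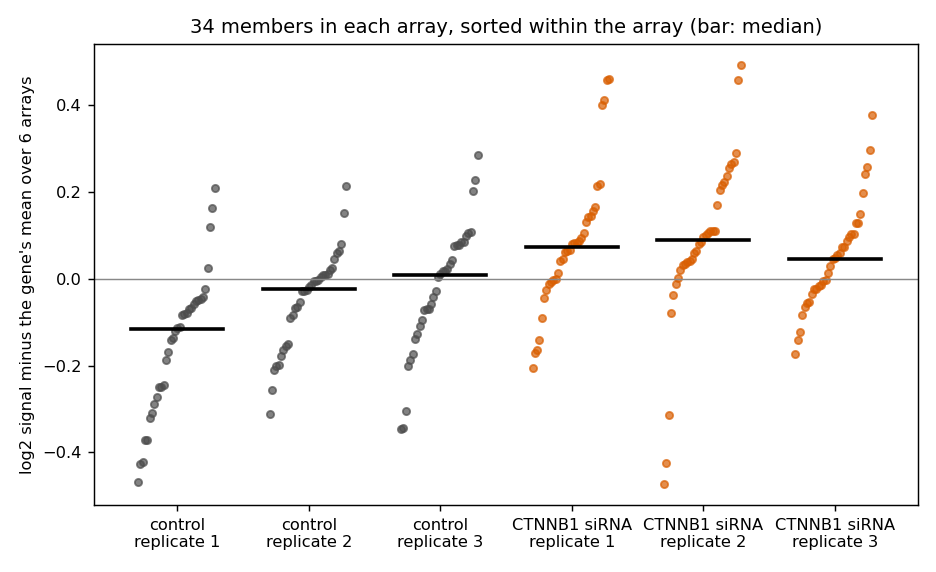
Each point is 1 member's log2 signal minus its mean over the 6 arrays (vertical axis), sorted within each array (horizontal axis), and bars are medians. Control replicate 1 has the lowest median, -0.12, and the 3 CTNNB1 siRNA arrays have medians of 0.05 to 0.09.

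Among the regulators of phosphofructokinase, PFKFB4 measured 6.74, 6.91 and 6.82 with control siRNA and 7.62, 7.43 and 7.46 with CTNNB1 siRNA. The groups were well apart, since the gap between them was larger than the spread within either. Its log2 change was 0.68 ± 0.10 (limma, adjusted p = 0.00494), the 180th largest rise of all genes. PFKFB3, the growth- and hypoxia-induced isoform, had 7.04, 7.39 and 7.26 against 7.41, 7.55 and 7.32, and its groups overlapped (0.20 ± 0.12, adjusted p = 0.382). PFKFB2, best known as the heart isoform, ran the other way, with 7.999, 7.989 and 8.122 against 7.665, 7.411 and 7.834. All 3 of its CTNNB1 siRNA values lay below all controls, and the change of -0.40 ± 0.12 did not pass the threshold (adjusted p = 0.0885).

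The catalytic phosphofructokinase genes also differed in sign. PFKM, the muscle subunit, was tightly grouped in controls at 8.97, 8.98 and 8.99 and lower and more scattered with CTNNB1 siRNA, at 8.60, 8.29 and 8.75. Its change was -0.43 ± 0.12 (adjusted p = 0.0750). PFKP, the platelet subunit, had means of 9.45 ± 0.01 and 9.59 ± 0.07 (SD, n = 3 each), and its groups did not overlap (0.14 ± 0.09, adjusted p = 0.441). PFKL, the liver subunit, had means of 9.06 ± 0.14 and 9.13 ± 0.08 (SD, n = 3 each), and its values overlapped. PFKM passed the threshold without CTNNB1 siRNA replicate 3 (adjusted p = 0.0429), and both PFKM and PFKFB2 passed when the dimmest 25% of genes were left out (0.0390 and 0.0480).

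**Figure D3:**
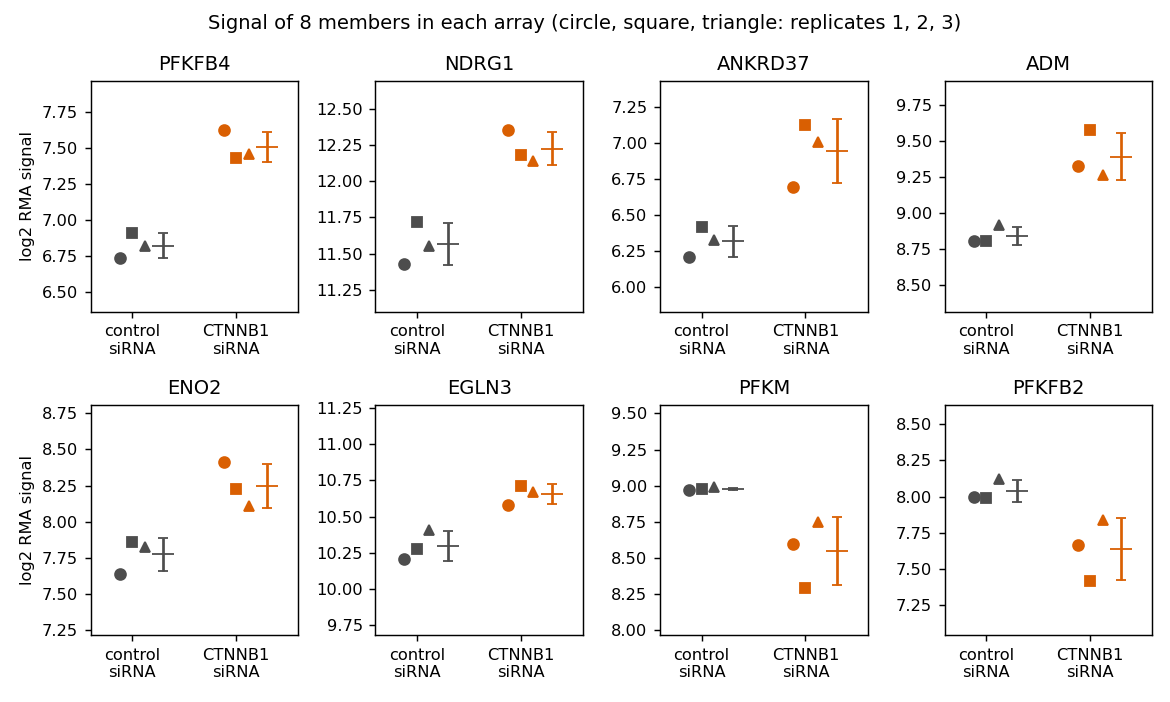
Log2 RMA signal (vertical axis, 1.6 units in each panel) of 8 members in every array, grey for control siRNA and orange for CTNNB1 siRNA, with symbols for replicates 1 to 3 and mean ± SD beside them. The groups are apart in all 8 panels, upward in PFKFB4, NDRG1, ANKRD37, ADM, ENO2 and EGLN3 and downward in PFKM and PFKFB2, of which the first 5 passed the threshold.

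Of the other hypoxia response genes 3 of 9 measured rose (33.3%, beside 2.07% of all genes). NDRG1 measured 11.43, 11.72 and 11.55 with control siRNA and 12.36, 12.19 and 12.14 with CTNNB1 siRNA, a change of 0.66 ± 0.11 (adjusted p = 0.00980). Its signal was far above the array medians, and the lowest CTNNB1 siRNA value lay above the highest control. ANKRD37 had 6.21, 6.42 and 6.32 against 6.69, 7.12 and 7.01, a change of 0.62 ± 0.13 (adjusted p = 0.0211). Its control signal was only a little above the array medians and was not shown to be above background. ADM had 8.81, 8.80 and 8.91 against 9.33, 9.57 and 9.26, a change of 0.55 ± 0.11 (adjusted p = 0.0200), again with no overlap.

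The mitophagy receptor genes BNIP3 and BNIP3L, which mark mitochondria for removal, had changes of 0.28 ± 0.10 (adjusted p = 0.140) and 0.19 ± 0.10 (adjusted p = 0.328). In both genes the CTNNB1 siRNA arrays lay above all controls, at 9.42 to 9.49 against 9.07 to 9.29 for BNIP3 and with a lowest value of 10.61 against a highest control of 10.56 for BNIP3L. P4HA1, a collagen prolyl hydroxylase subunit, measured 0.27 ± 0.12 (adjusted p = 0.254), and its paralogue P4HA2 0.01 ± 0.10 (adjusted p = 0.960). VEGFA, the angiogenic growth factor and a standard HIF target, had 9.26, 9.34 and 9.45 against 9.59, 9.36 and 9.23. Its groups overlapped fully, and the 95% confidence interval of its change ran from -0.21 to 0.30. KDM3A, a histone demethylase gene, was likewise near 0, at -0.02 ± 0.11 (adjusted p = 0.937).

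None of the 4 HIF subunit and prolyl hydroxylase genes passed the threshold, beside 4.72% of all genes, so a count of 0 says little here. EGLN3, a hydroxylase gene that is itself a HIF target, came closest, with 10.20, 10.28 and 10.41 against 10.58, 10.71 and 10.67 and no overlap (0.36 ± 0.10, adjusted p = 0.0694). It passed after cyclic loess (0.0287), a second quantile normalization (0.0420), array weights (0.0426), a trended and robust variance (0.0124) or without the dimmest 25% of genes (0.0358). EGLN1, the main oxygen sensor of the family, had 8.28, 8.41 and 8.43 against 8.51, 8.62 and 8.24, with overlap (0.09 ± 0.12, adjusted p = 0.738). The alpha subunits had opposite signs: HIF1A measured 9.71, 9.59 and 9.79 against 9.50, 9.27 and 9.66 (-0.22 ± 0.12, adjusted p = 0.337), and its groups overlapped. EPAS1, which encodes HIF-2 alpha, measured 9.09, 9.01 and 9.11 against 9.63, 9.25 and 9.19 (0.29 ± 0.12, adjusted p = 0.229). Its groups did not overlap, and the difference was carried mainly by CTNNB1 siRNA replicate 1. These arrays measure transcripts, whereas HIF activity is set largely at the protein level.

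The 4 glucose entry genes showed small positive changes and no call, beside 4.72% of all genes called. SLC2A1, the widespread glucose transporter, had 12.43, 12.50 and 12.46 against 12.48, 12.56 and 12.46, and its values overlapped (0.04 ± 0.09). SLC2A3, the high-affinity transporter, had 11.80, 11.76 and 11.72 against 11.93, 11.96 and 11.92, with no overlap (0.18 ± 0.09, adjusted p = 0.308). The hexokinases, which phosphorylate glucose, measured 0.20 ± 0.10 for HK2, the inducible tumour form, and 0.14 ± 0.10 for the housekeeping HK1. Their adjusted p was 0.314 and 0.463, and HK2 did not overlap between groups.

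Of the 9 remaining glycolytic enzymes measured, ENO2 rose, from 7.64, 7.86 and 7.82 to 8.41, 8.23 and 8.11, a change of 0.48 ± 0.11 (adjusted p = 0.0420). That is 1 of 9 (11.1%), beside 2.07% of all genes. ALDOC, the brain form of aldolase, was higher in each CTNNB1 siRNA array, at 9.44, 9.53 and 9.40 against 8.90, 9.27 and 9.10 (0.37 ± 0.11, adjusted p = 0.0972). The widely expressed isoforms of the same enzymes differed little: ENO1 measured 13.61 ± 0.04 and 13.49 ± 0.02 (SD, n = 3 each), with no overlap, and ALDOA 9.79 ± 0.03 and 9.85 ± 0.06. GAPDH, often taken as a reference transcript, had a change of 0.03 ± 0.10, with a 95% confidence interval from -0.20 to 0.25. GPI and PGK1, which encode an isomerase and an ATP-forming kinase, both measured 0.04 ± 0.10. PKM, pyruvate kinase, measured -0.01 ± 0.09 and TPI1, the triose isomerase, -0.07 ± 0.10, and both signs turned after cyclic loess (0.07 and 0.012). TPI1 was the only member with several rows of its own, and its dimmer row measured -0.14 ± 0.10 in a fit of all 33297 rows.

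PGAM1 could not be read apart from PGAM4, a near-identical retrogene copy. The 5 rows shared by both, of which 2 hold identical values, were higher in every CTNNB1 siRNA array than in any control, with changes of 0.26 to 0.28. In the fit of all 33297 rows their adjusted p was 0.227 to 0.260.

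At the fate of pyruvate, LDHA, which turns pyruvate into lactate, measured 12.50, 12.69 and 12.78 against 12.88, 12.78 and 12.85. The groups touched but did not overlap, and the change of 0.18 ± 0.10 did not pass (adjusted p = 0.381). PDK1, the kinase that shuts pyruvate out of the mitochondrial oxidation route, measured 0.09 ± 0.10 (adjusted p = 0.650).

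Leaving out single arrays changed most of the 5 calls but no direction. Calls over all genes also fell, from 870 to between 283 and 605, except without CTNNB1 siRNA replicate 3, where 877 were called. PFKFB4 passed with any array left out, with adjusted p up to 0.0350. NDRG1 missed the threshold without control replicate 1 (0.0553) or CTNNB1 siRNA replicate 1 (0.0564). ANKRD37 missed it without control replicate 1 (0.104) or 3 (0.0724) and without CTNNB1 siRNA replicate 2 (0.0701) or 3 (0.0530). ADM and ENO2 missed it without any array other than CTNNB1 siRNA replicate 3, with adjusted p up to 0.0959 and 0.174 without control replicate 1. No member passed in a per-gene fit without moderation, where PFKFB4 had an adjusted p of 0.0726.

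**Figure D4:**
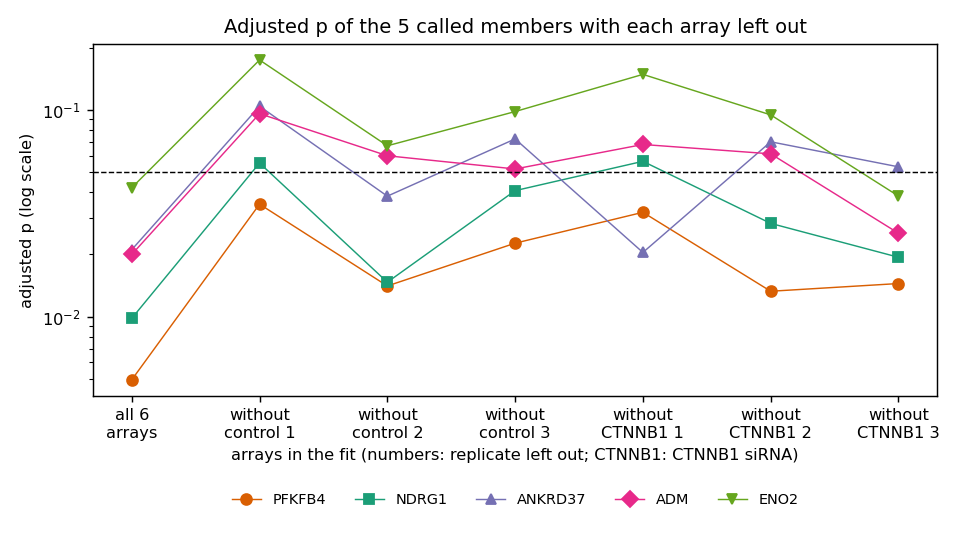
Adjusted p (vertical log axis) of the 5 called members in the limma fit of all 6 arrays and with each array left out (horizontal axis); the dashed line is 0.05. PFKFB4 stays under the line in each fit, and ENO2 reaches 0.174 without control replicate 1.

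Related genes within the same array were set against each other in 13 pairs, chosen after the values were seen. The log2 ratio of PFKFB4 to PFKFB2 signal was -1.21 ± 0.12 in controls and -0.13 ± 0.21 with CTNNB1 siRNA (SD, n = 3 each), a shift of 1.08. That of ENO2 to ENO1 shifted by 0.59, of PFKP to PFKM by 0.57 and of EPAS1 to HIF1A by 0.51. These shifts restate the changes given above for single genes and carry no test, since the pairs were picked for their values and several share a gene. The size of a ratio is not a comparison of transcript numbers.

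Other widely used hypoxia response genes, 37 measured, held 3 rises (8.11%, beside 2.07% of all genes) and 1 fall (beside 2.65%), with 29 changes above 0 (beside 51.2%) and a median change of 0.13. GPRC5A, a retinoic acid-induced receptor gene, rose from 9.40, 9.38 and 9.57 to 10.40, 10.24 and 10.16 (0.82 ± 0.11, adjusted p = 0.00227) and passed with any array left out. PLOD2, a collagen lysyl hydroxylase gene, rose by 0.47 ± 0.10 (adjusted p = 0.0265) and BHLHE40, a transcriptional repressor gene, by 0.49 ± 0.11 (adjusted p = 0.0311). TFRC, the transferrin receptor gene, ran the other way and fell by 0.53 ± 0.10 (adjusted p = 0.0142). PLOD2 was not called without any 1 array and BHLHE40 without any but CTNNB1 siRNA replicate 3, with adjusted p up to 0.133 and 0.146, both without control replicate 1. TFRC missed the threshold without control replicate 1 (0.0735) or 3 and without CTNNB1 siRNA replicate 1.

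In the HIF machinery list 1 of 13 genes rose (7.69%, beside 2.07% of all genes): CITED2, a HIF target that competes with HIF for the co-activator p300, by 0.46 ± 0.11 (adjusted p = 0.0457). Its call was lost without any array but CTNNB1 siRNA replicate 2, with adjusted p up to 0.156, and after median centring (0.0512). ARNT, VHL and the other measured members of the list were not called, and the list's median change was 0.02.

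The lists for carbon routes next to glycolysis all had median changes below 0, beside 0.006 over all genes. Without the dimmest 50% of genes the median over all genes was itself -0.05. Those brighter genes held 13 of 17 lactate and pyruvate genes, 6 of 7 pentose phosphate genes and 9 of 9 glycogen genes, but 7 of 22 other isoforms and enzymes. Of 22 other isoforms and enzymes around glycolysis none was called by limma (beside 4.72% of all genes) or without moderation (beside 0.603%). In each direction 1 had an unadjusted p under 0.05, beside 8.34% of all genes higher and 12% lower. PKLR, the liver pyruvate kinase gene, had the smallest p (0.39 ± 0.12, adjusted p = 0.0857). Of 17 lactate and pyruvate genes none was called by limma or without moderation, beside the same shares of all genes. A negative change with an unadjusted p under 0.05 was found in 2, which is near the 12% of all genes. LDHB, the lactate dehydrogenase subunit that favours pyruvate formation, had means of 11.06 ± 0.10 and 10.68 ± 0.16 (SD, n = 3 each), with no overlap (-0.38 ± 0.11, adjusted p = 0.0860). In the pentose phosphate pathway, the branch that makes ribose and NADPH, RPIA, a ribose isomerase gene, fell by 0.40 ± 0.09 (adjusted p = 0.0338). It was 1 of 7 genes, beside 2.65% of all genes that fell. Of the 7 changes 6 were below 0, while 51.2% of all genes had a change above 0. In glycogen metabolism 1 of 9 genes rose (11.1%, beside 2.07% of all genes): PPP1R3B, a glycogen-targeting phosphatase subunit gene, by 0.40 ± 0.10 (adjusted p = 0.0462). The calls of RPIA and PPP1R3B were lost without any 1 array, with adjusted p up to 0.122 and 0.198 without control replicate 1. Scaling also ended them, cyclic loess for RPIA (0.0701) and median centring for PPP1R3B (0.0505). Median changes of these 4 lists were -0.05, -0.03, -0.15 and -0.07.

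**Figure D5:**
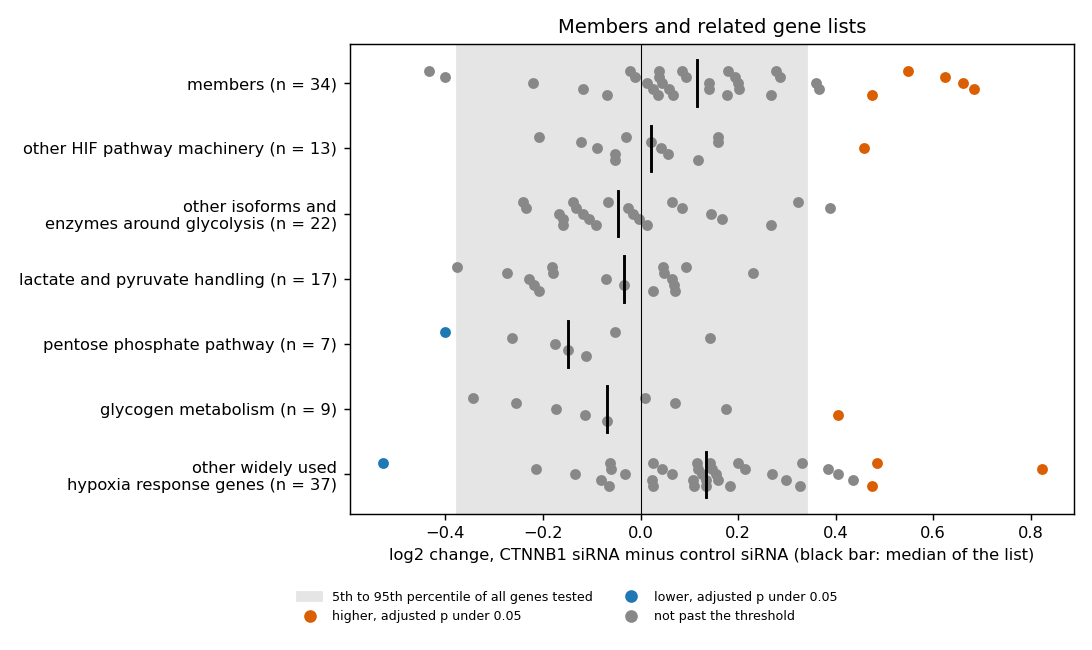
Log2 change (horizontal axis) of each gene in the member set and 6 related lists; orange and blue mark calls, black bars are list medians, and grey spans the 5th to 95th percentile of all genes. Members and other hypoxia genes have medians of 0.12 and 0.13, and the other 5 lists between -0.15 and 0.02; the marker lists, which are not drawn, had medians of 0.11 to 0.29.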

How the data were processed

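RNA (500 ng per sample) from 6 YCC3 samples was read on Affymetrix Human Gene ST arrays, per the labels' protocols. The authors deposited log2 signals. RMA and Affymetrix Expression Console 1.1 are named, per the submitters' processing notes. RMA makes the array distributions alike, so a change shared by most genes is not visible. That the scale is log2 follows from the range, 0.789 to 14.5. Scanner intensities were not used here, so signal over background is unknown, and the number of arrays limits the precision. The authors' genome build is not given in the sources used here.

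Of 33297 rows, 19460 had 1 gene symbol, 1754 several and 12083 none in the annotation; gene IDs of 19429 matched RefSeq. The brightest row per gene left 18417 genes, fitted under R 4.3.3 by the lmFit and eBayes functions of limma 3.58.1. Tests are two-sided, positive changes mean more signal with CTNNB1 siRNA, and p-values were Benjamini-Hochberg adjusted across the 18417. The fit was tested on simulated data; full recovery of the largest known differences was asked first and narrowly missed, and the criterion was then loosened with the fit left as it was. No 2 arrays of a group were identical. The members and lists were chosen with earlier results of these data known, and the paralogue pairs after values were seen. Named were CTNNB1, the members, and from each related list the called genes (up to 4), otherwise the gene with the smallest p. Promoters are RefSeq sequences, of which 31 of 36 members matched. Alternatives covered a replicate block, scaling, dim-gene filters, variance models, rows, the threshold and each array left out.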

Additional observations from a re-analysis of the deposited data

How the results depend on the processing

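The number of members that rose was 5. It was 8 without the dimmest 50% of genes, where 7% of all genes were higher, 0 with no moderation of the variances, 1 when all rows of the table were fitted together, and between 1 and 4 with 1 array left out. It stayed within 1.5 times under the other settings. Of all genes 0.749% were higher in the fit of all rows and 0.994% to 1.98% with 1 array left out, beside 2.07% in the main fit. The number that fell was 0. It was 2 (PFKM and PFKFB2) without the dimmest 25% or 50% of genes, with a trended and robust variance and at an adjusted p of 0.10, and between 0 and 1 with 1 array left out. In these 4 settings 6.71%, 13.2%, 5.63% and 5.47% of all genes were lower, so 2 of 34 members (33 in the second) is near or below that share. With 1 array left out 0.516% to 2.79% of all genes were lower. The members' median change lay between 0.07 and 0.16 with 1 array left out. The lowest, 0.07, was without control replicate 1, beside 0.12 in the main fit. It moved by less than the spread between arrays (0.0486) in each setting tried. That spread is taken from the same 6 arrays, so leaving 1 out could hardly move the median beyond it. The comparison therefore does not show stability. Over the related lists 7 genes of 105 were called. Added after seeing the data, the same settings gave 13 of 94 without the dimmest 25% of genes, 14 of 72 without the dimmest 50%, 13 with the trended and robust variance, 14 at 0.10, 1 with no moderation, 1 in all rows, and 1 to 3 with 1 array left out. The share of all genes called rose as well, from 4.72% to 10.7%, 20.2%, 8.81% and 9.06% in the first 4 of these. That share was 0.603% with no moderation, 1.06% in all rows and 1.54% to 4.76% with 1 array left out.

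Same-numbered arrays had correlations of -0.02, 0.33 and 0.22 in their deviations from the group means. Differently numbered arrays had correlations of -0.29 to 0.08, so replicates 2 and 3 were closest to the array of their own number. The main fit did not take the numbers as pairs, and whether they are pairs was not tested. With the replicate number as a block 4 members were called, all among the 5, and ENO2 was not (adjusted p = 0.0540). Over all genes the block called 1177 (6.39%), beside 870 (4.72%) in the main fit. Reading PGAM1 from its brightest shared row, also added after seeing the data, left 5 called of 35.

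Changes near 0 turned sign. After a second quantile normalization TPI1 was at 0.0071, PKM at 0.030 and KDM3A at 0.026; after cyclic loess they were at 0.012, 0.071 and 0.043. With array weights PKM was at 0.014 and P4HA2 at -0.0015, and median centring put P4HA2 at -7.4e-05. With 1 array left out the ranges were -0.0093 to 0.12 for PFKL, -0.033 to 0.079 for GPI, -0.0085 to 0.087 for GAPDH, -0.011 to 0.087 for PGK1, -0.048 to 0.024 for PKM, -0.056 to 0.12 for VEGFA, -0.036 to 0.086 for P4HA2 and -0.072 to 0.075 for KDM3A. None of these was called, and the cause was not tested. Over 44 named genes and 790 alternatives, 668 kept direction and call, 74 lost a call, 27 gained one and 21 turned sign.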
